A study of Mus musculus with 16 samples.

Results

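Klf1, Gata1, Hemgn, Alas2, Rhag, Epb42 and Slc4a1 are genes of the developing red blood cell, and they were measured here in whole gonads of mouse embryos. They are 7 of the 19532 genes that had a probe on the array, and all 7 were among the 16581 genes that passed a filter on weak signals. They were selected on these measured values, as genes higher in female knockout than in female heterozygous gonads at embryonic days (E) 14.5 and 15.5. The female values of those days are therefore given as a description with no test. The differences and slopes tested were those of samples that did not enter the choice. The error in each test was estimated from all 16 samples, which include the late female ones.

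The groups were female knockout (Nanos3-/-), female heterozygous (Nanos3+/-), male knockout (Nanos3-/-) and male heterozygous (Nanos3+/-) gonads. Germ cell precursors die without the RNA-binding protein encoded by Nanos3, and the heterozygous gonads that serve as controls also lack 1 of its copies. Each group had 1 sample for each day from E12.5 to E15.5, so n = 4 per group with the days as replicates. By its title each sample combines replicates 1 and 2, and the number of embryos behind a sample is not given in the sources used here. A free-text label calls the 8 female samples male, but in 16 of 16 samples Xist and 3 Y-linked genes matched the sex given in the title. Fewer cells of a type and less RNA per cell cannot be told apart in such whole-tissue samples.

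Red blood cells form from progenitors that first switch on a set of transcription factors and then fill with hemoglobin. GATA1, a zinc-finger protein that binds GATA motifs, and KLF1, which binds CACCC-type motifs, activate most of the genes that define the red cell. These include enzymes that make heme, the iron-bearing part of hemoglobin, and proteins that tie the membrane to the skeleton beneath it. In the mouse embryo a first wave of nucleated red cells comes from the yolk sac, and later cells mature in the fetal liver and reach other organs in the blood. The fetal gonad is not known as a site where red cells are made.

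The sequence upstream of the genes was read because their levels moved together in the female knockout series. The choice of the genes used the late samples of that series, so nothing about shared control is read from it. RefSeq promoters (GRCm38.p6) were matched for 6 of the 7 genes, all but Slc4a1, and the 250 bases before the annotated start were searched on both strands. A GATA motif (AGATAA or TGATAA) was found in 5 of 6, all but Gata1, against 16.6% of 32851 promoters of the same length. A CACCC-type motif (CCNCNCCC) was found in 3 of 6, Alas2, Gata1 and Hemgn, against 45.9% of all promoters. The 4 CACCC-type matches of Hemgn overlap each other in 1 run of G, and those of Alas2 overlap in part. An E-box (CANNTG) was found in 4 of 6, against 66.2% of all promoters. A match describes these letters and does not show that a factor binds there. The 120 bases before the start are shown, in the direction of transcription, for the 5 genes with a GATA or CACCC-type match in that stretch, and capitals mark these 2 motifs on either strand. The Epb42 match lies farther out, with its first base 226 before the start. The stretches are chr8:84901862-84901981 (+) for Klf1, chrX:7967911-7968030 (-) for Gata1, chr4:46404184-46404303 (-) for Hemgn, chrX:150547297-150547416 (+) for Alas2 and chr17:40811029-40811148 (+) for Rhag.
Klf1: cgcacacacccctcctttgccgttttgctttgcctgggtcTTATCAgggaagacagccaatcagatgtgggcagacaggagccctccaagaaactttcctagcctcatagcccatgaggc
Gata1: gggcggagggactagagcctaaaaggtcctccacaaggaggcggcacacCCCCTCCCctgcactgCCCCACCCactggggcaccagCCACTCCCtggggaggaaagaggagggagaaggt
Hemgn: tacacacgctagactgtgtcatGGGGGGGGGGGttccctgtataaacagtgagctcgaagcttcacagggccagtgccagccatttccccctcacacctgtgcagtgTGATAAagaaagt
Alas2: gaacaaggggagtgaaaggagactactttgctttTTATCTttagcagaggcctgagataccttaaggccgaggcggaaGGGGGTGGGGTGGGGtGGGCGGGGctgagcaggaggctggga
Rhag: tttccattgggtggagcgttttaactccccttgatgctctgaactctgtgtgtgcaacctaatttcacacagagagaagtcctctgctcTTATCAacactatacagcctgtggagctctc

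Values are log2 ratios of a probe's signal to its typical signal over the samples, after scaling between arrays, so 0 is the typical level of that probe. They rank samples for a gene and do not rank genes. Differences are knockout minus heterozygous on this scale, and a gene is said to be called, or to have risen or fallen, where limma gave a p under 0.05 after Benjamini-Hochberg adjustment over the 16581 genes. Early days are E12.5 and E13.5, and late days are E14.5 and E15.5. Dim probes carry a shared lower limit in the deposited values, reached by 1554 to 11174 of 41174 probes per sample, and the probe used for each of the 7 genes was above it in every sample. The targeted gene Nanos3 lay between -0.71 and 0.03 in male knockouts, against 0.92 to 3.49 in male heterozygotes. In females it was -0.49, 0.15, -0.50 and -0.30 in knockouts at E12.5 to E15.5, against 1.03, 0.27, -0.71 and -0.82 in heterozygotes. Nanos3 therefore did not separate the female groups at E14.5 and E15.5, and whether its probe lies in the deleted part is not given in the sources used here. The summed ratio of 7 germ cell markers was 0.962 to 1.96 in female knockouts against 62.4 to 112 in female heterozygotes, and 0.665 to 2.24 in male knockouts against 120 to 233 in male heterozygotes. The E13.5 female knockout sample stood apart in 12 fetal liver hepatocyte markers, with a summed ratio of 143 against at most 27.6 in the other 15 samples.

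All 7 genes were higher in female knockouts than in female heterozygotes on each of the 4 days, and the difference was larger at E14.5 and E15.5 than at E12.5 and E13.5 in all 7. Averaged over the late days it ran from 3.67-fold for Alas2 to 60.6-fold for Hemgn. All 7 were higher on both late days, as were 46.9% of all genes tested, and at least 2-fold higher, as were 1.67%, and since the choice used these values nothing is read from that count. In male knockouts the same genes were also higher on each of the 4 days, by 1.30-fold to 3.26-fold over the late days. Of all genes tested, 32.0% were higher on all 4 days in female knockouts and 34.1% in male knockouts. Whether the effect differs between the sexes was not tested, because the choice fixed the female side.

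**Figure D1:**
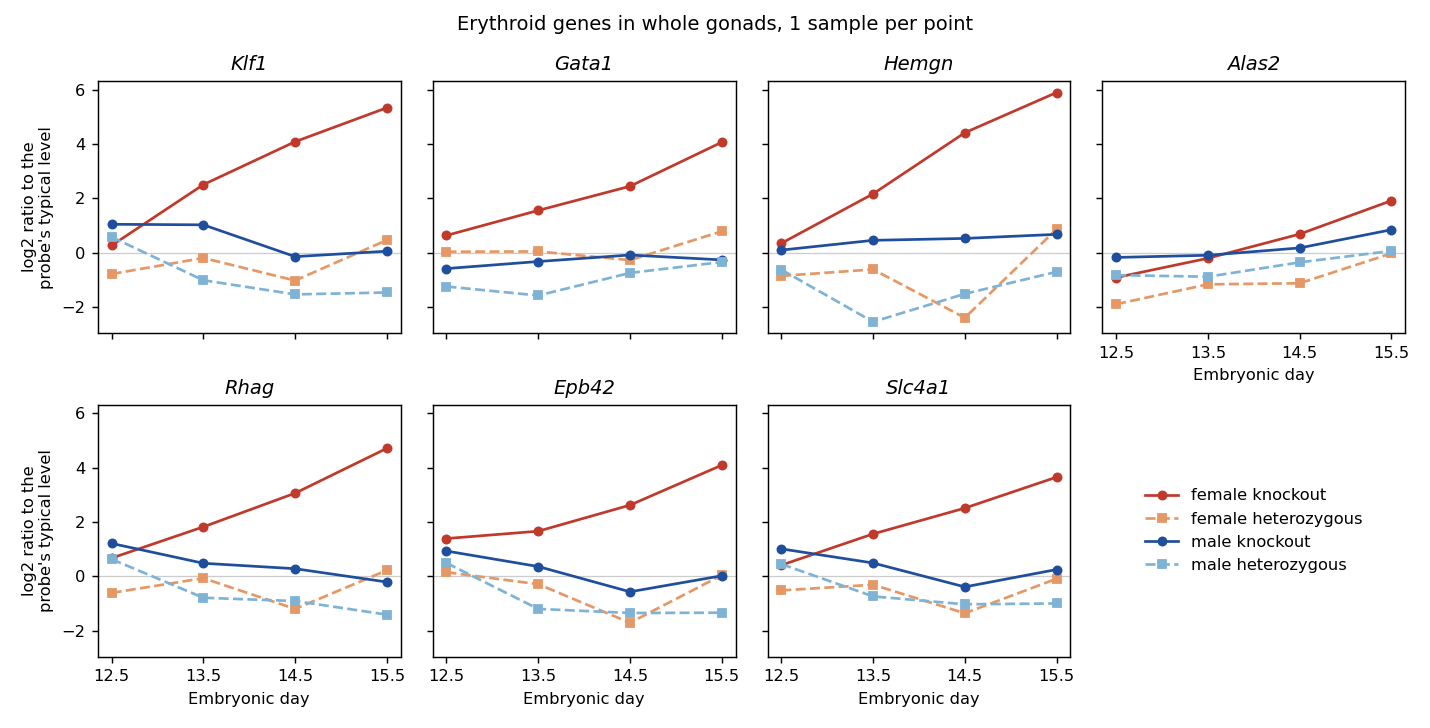
Log2 ratio of the 7 genes (vertical axis) by embryonic day (horizontal axis), with 1 point per sample, solid lines for knockout and dashed lines for heterozygous gonads. The female knockout line climbs over the 4 days in every panel, to 5.90 for Hemgn and 1.92 for Alas2 at E15.5, while the other 3 groups stay between -2.54 and 1.21.

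Klf1, the erythroid transcription factor named above, measured 0.27, 2.51, 4.09 and 5.34 in female knockouts from E12.5 to E15.5, against -0.78, -0.19, -1.02 and 0.47 in female heterozygotes. The E12.5 knockout sample lay within the heterozygous range and the 3 later ones above it. The difference was 1.05, 2.70, 5.11 and 4.87 by day, which is 31.8-fold over the late days. At E12.5 and E13.5, days that the choice did not use, Klf1 was higher in female knockouts by 1.88 ± 0.47 (standard error, limma, adjusted p = 0.0292). In males it measured 1.05, 1.03, -0.14 and 0.06 in knockouts, against 0.58, -1.01, -1.53 and -1.46 in heterozygotes. The groups overlapped through the E12.5 heterozygous sample alone. The male difference was 1.35 ± 0.61 over the 4 days (limma, adjusted p = 0.119) and 1.46 ± 0.47 over the late days (limma, adjusted p = 0.0541), and neither passed the threshold.

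Gata1, the partner of Klf1 in much of the erythroid programme, measured 0.64, 1.56, 2.45 and 4.07 in female knockouts from E12.5 to E15.5, against 0.04, 0.05, -0.27 and 0.79 in female heterozygotes. Only the E12.5 knockout sample lay below the highest heterozygous sample. The late difference was 3.0, or 8.02-fold, and the early one was 1.05 ± 0.29 (limma, adjusted p = 0.0374). In male gonads Gata1 measured -0.58, -0.32, -0.08 and -0.26 in knockouts, against -1.24, -1.57, -0.74 and -0.34 in heterozygotes. The male samples came closest at E15.5, where they differed by 0.08. The male difference of 0.67 ± 0.39 over the 4 days did not pass the test (limma, adjusted p = 0.219), nor did the 0.38 ± 0.29 of the late days (limma, adjusted p = 0.347). GATA1 is also made in megakaryocytes, mast cells and eosinophils, and in Sertoli cells after birth.

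Hemgn encodes hemogen, a nuclear protein of blood progenitors that is known as a target of GATA1. It measured 0.35, 2.17, 4.42 and 5.90 in female knockouts from E12.5 to E15.5, against -0.85, -0.61, -2.39 and 0.87 in female heterozygotes. The difference was 6.81 at E14.5, or 112-fold, where the heterozygous sample was at its lowest, and 5.03 at E15.5. The early female difference of 1.99 ± 0.66 was larger than that of the other 6 genes and also less precise, and it did not pass the test (limma, adjusted p = 0.0633). In males Hemgn measured 0.10, 0.46, 0.53 and 0.68 in knockouts, against -0.62, -2.54, -1.51 and -0.70 in heterozygotes, with no overlap between the groups. Hemgn alone of the 7 had all 4 male knockout samples above all 4 male heterozygous samples, as had 7.94% of all genes. Its male difference of 1.78 ± 0.79 still missed the threshold (limma, adjusted p = 0.111), as did the late one of 1.71 ± 0.66 (limma, adjusted p = 0.0875). Of the 4 Hemgn probes, the other one above the limit in every sample differed by 6.51 and 5.11 on the late female days, and the remaining pair were at the limit in 15 and 12 samples.

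Alas2 encodes the red cell form of the enzyme that starts heme synthesis. It measured -0.91, -0.20, 0.69 and 1.92 in female knockouts from E12.5 to E15.5, against -1.89, -1.16, -1.12 and -0.02 in female heterozygotes. Both early knockout samples lay within the heterozygous range, and heterozygous levels also climbed with age. Among the 7 genes Alas2 had the smallest late difference, 1.88 or 3.67-fold, and the smallest early one, 0.96 ± 0.11, with the lowest adjusted p (limma, adjusted p = 0.0037). In males Alas2 measured -0.17, -0.09, 0.18 and 0.85 in knockouts, against -0.82, -0.88, -0.35 and 0.07 in heterozygotes. The male differences by day lay between 0.54 and 0.79, a narrow range beside the other members. Alas2 was the only one of the 7 called over all male days, at 0.69 ± 0.17 (limma, adjusted p = 0.0162), and it was called on the late male days at 0.66 ± 0.11 (limma, adjusted p = 0.00668). Over 14 alternative settings the 4-day male call held in 10, with adjusted p from 0.0102 to 0.469.

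Rhag encodes the Rh-associated glycoprotein, a gas and ammonium channel that carries the Rh proteins to the red cell surface. It measured 0.67, 1.82, 3.06 and 4.71 in female knockouts from E12.5 to E15.5, against -0.61, -0.07, -1.20 and 0.22 in female heterozygotes, with no overlap. The late difference was 4.37, or 20.7-fold, and the early one was 1.58 ± 0.24 (limma, adjusted p = 0.00782). In males Rhag measured 1.21, 0.48, 0.28 and -0.21 in knockouts, against 0.63, -0.79, -0.91 and -1.41 in heterozygotes. Both male groups were highest at E12.5 and lowest at E15.5, the reverse of the female knockouts. Rhag was higher in male knockouts on the late days by 1.19 ± 0.24 (limma, adjusted p = 0.0135), and over the 4 days the difference of 1.06 ± 0.51 was not called (limma, adjusted p = 0.136).

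Epb42 encodes protein 4.2, which links the anion exchanger to the membrane skeleton. It measured 1.39, 1.66, 2.62 and 4.09 in female knockouts from E12.5 to E15.5, against 0.15, -0.29, -1.71 and 0.04 in female heterozygotes, again with no overlap. The late difference was 4.19, or 18.3-fold, and the early one was 1.59 ± 0.31 (limma, adjusted p = 0.0145). In males Epb42 measured 0.93, 0.36, -0.57 and 0.02 in knockouts, against 0.49, -1.20, -1.35 and -1.34 in heterozygotes. The E12.5 heterozygous sample was high and the other 3 were close together. The late male difference was called at 1.07 ± 0.31 (limma, adjusted p = 0.0398), and the 4-day one of 1.04 ± 0.49 was not (limma, adjusted p = 0.131). The second Epb42 probe differed by 4.65 and 4.24 on the late female days, close to the 4.33 and 4.05 of the one used.

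Slc4a1 encodes band 3, the anion exchanger that is the most abundant protein of the red cell membrane. It measured 0.41, 1.56, 2.51 and 3.65 in female knockouts from E12.5 to E15.5, against -0.52, -0.31, -1.36 and -0.09 in female heterozygotes, with no overlap. Rhag, Epb42 and Slc4a1 were thus the 3 of 7 genes with all female knockout samples above all female heterozygous samples, as were 6.03% of all genes, and 2 of the 4 days behind that count entered the choice. The late Slc4a1 difference was 3.81, or 14.1-fold, and the early one was 1.40 ± 0.28 (limma, adjusted p = 0.0157). In males Slc4a1 measured 1.01, 0.49, -0.39 and 0.25 in knockouts, against 0.45, -0.74, -1.03 and -1.0 in heterozygotes, with the E12.5 heterozygous sample again within the knockout range. It was called on the late male days at 0.94 ± 0.28 (limma, adjusted p = 0.0432) and not over the 4 days at 0.92 ± 0.45 (limma, adjusted p = 0.145).

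**Figure D2:**
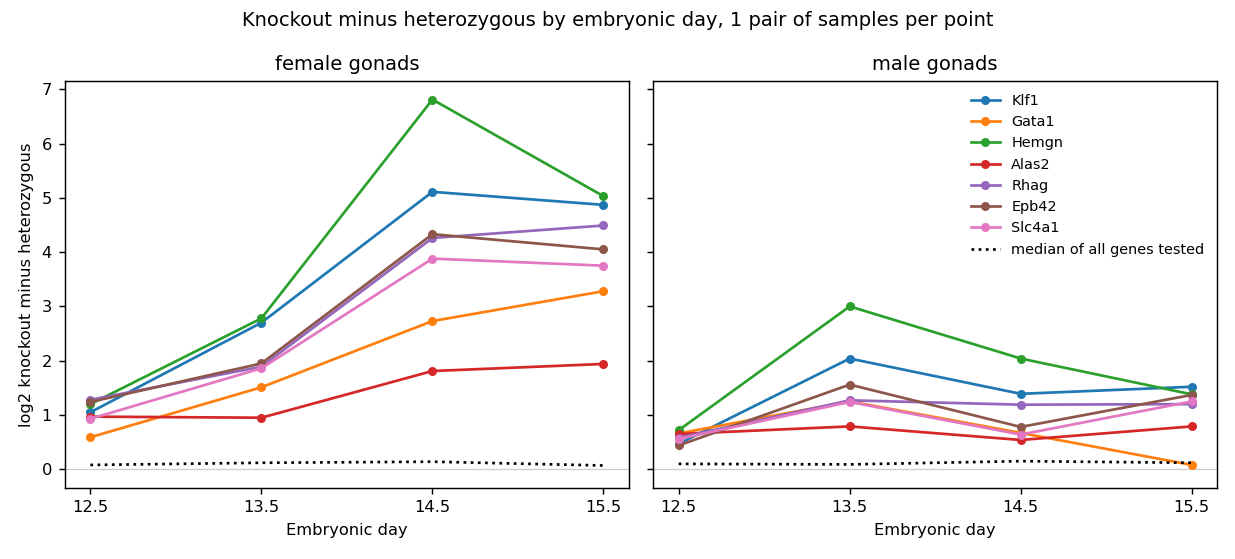
Knockout minus heterozygous difference in log2 (vertical axis) of each gene by embryonic day (horizontal axis), females on the left and males on the right, with 1 pair of samples per point and the median of all genes tested as a dotted line. Every point lies above 0. The female lines reach 1.81 to 6.81 at E14.5, and no male line passes 3.0.

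In the samples that the choice did not use, 6 of the 7 genes rose in female knockouts at E12.5 and E13.5, all but Hemgn. Of all genes tested, 28.4% were called in that comparison, and 17.3% of all genes were higher. The members' median difference there was 1.58, against 0.10 for all genes tested. On the late male days 4 of the 7 rose, Alas2, Rhag, Epb42 and Slc4a1, where 33.3% of all genes were called and 18.7% were higher. The median was 1.07 for the 7 and 0.15 for all genes. Over all 4 male days 1 of the 7 rose, Alas2, where 34.3% of all genes were called and 21.7% were higher. The members' share is near that of all genes, while their median was 1.04 against 0.12 for all genes. The scaling between arrays moves the male counts: of the genes called over all male days 63.3% were higher, against 16.6% with the values as deposited, 49.8% after quantile normalization and 51.8% with scaling to the median. On the late male days the share was 56.2%, against 3.54%, 39.7% and 35.1% under the same 3 scalings. The members' late male median stayed positive under each of them, at 0.72, 1.17 and 0.94, with 0, 2 and 2 of the 7 called by limma and 2, 5 and 6 at an unadjusted p under 0.05.

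On the early female days, Klf1 and Rhag were still called without E12.5 (limma, adjusted p = 0.0302 and 0.0353), with a members' median of 1.89. None of the 7 was called by limma without E13.5 or when female samples were fitted alone. When female samples were fitted alone, 7 had an unadjusted p under 0.05 in limma. From E12.5 alone the members' median difference was 1.05. The hepatocyte markers were also higher in female knockouts on that day, with a median difference of 1.11, and their part was not tested. The male counts depend on how the error is shared, since the standard error of a gene comes from both sexes together and the female difference changes with the day. In a fit of male samples alone, Klf1 had a standard error of 0.26 in place of 0.61, and 6 of the 7 genes were called over the 4 male days, all but Gata1 (limma, adjusted p = 0.062). On the late male days the same fit called 2 in place of 4, since Epb42 (limma, adjusted p = 0.077) and Slc4a1 (limma, adjusted p = 0.0567) were lost.

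**Figure D3:**
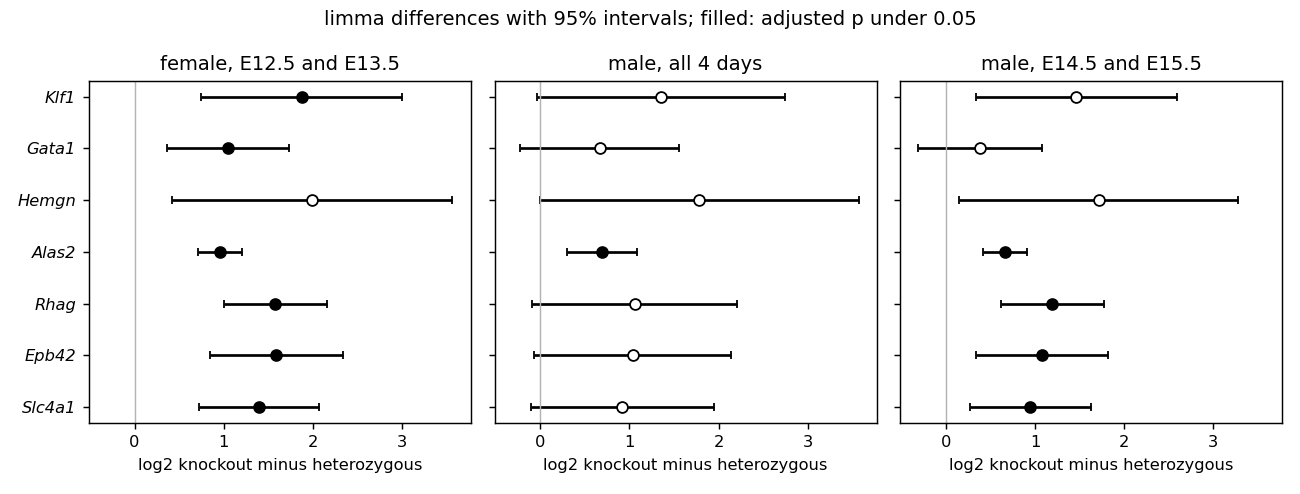
Log2 knockout minus heterozygous difference (horizontal axis) from limma for each gene (vertical axis) in the 3 comparisons that the choice of genes did not use, with 95% intervals and filled points where the adjusted p was under 0.05. 6 points are filled for the early female days, 1 for all male days and 4 for the late male days, and every point lies to the right of 0.

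Change with age was described for each group by its slope per day. In female knockouts the slopes of the 7 genes ran from 0.91 for Epb42 to 1.89 for Hemgn, given with no test because the late days entered the choice. In female heterozygotes they ran from -0.17 for Epb42 to 0.56 for Alas2. None of the 7 slopes was called by limma in male knockouts, where 5.82% of all genes were called and 2 of the 7 had an unadjusted p under 0.05. They lay between -0.45 for Rhag and 0.33 for Alas2. In male heterozygotes 16.5% of all genes were called and 5.82% were falling. Rhag alone of the 7 was called there, falling by 0.62 ± 0.19 per day (limma, adjusted p = 0.0449), and Klf1 had the steepest uncalled slope, -0.67 ± 0.22 (limma, adjusted p = 0.0575). The Rhag call held in 6 of 13 alternatives. Without E12.5 none of the 7 slopes was called by limma, and their median was -0.07 in place of -0.46, with 2 at an unadjusted p under 0.05.

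At E14.5 and E15.5 both female knockout samples lay above all 12 samples of the other 3 groups for 6 of the 7 genes, all but Alas2, as they did for 9.80% of all genes, and the choice used these samples. Over the 16 samples, among which the late female knockouts are highest for 6 of the 7 genes, Pearson's r between pairs of the 7 genes ran from 0.565 for Alas2 with Epb42 to 0.984 for Rhag with Slc4a1, with a median of 0.914 over 21 pairs. Over the 12 samples without female knockouts the median was 0.623, the lowest was -0.006 for Gata1 with Slc4a1 and the highest was 0.940 for Epb42 with Slc4a1.

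The 15 other genes whose pattern was most like the mean pattern of the 7 over the 16 samples had r between 0.934 and 0.979. They were Ermap, Trim10, Redrum, Smim5, Epor, Ctse, Car2, Fermt3, Slc26a1, Plek, Tnfrsf14, Tal1, Nxpe2, Fn3k and Gfi1b. Ermap, an erythroid membrane-associated protein, was the closest, with differences of 0.92, 2.53, 5.2 and 5.03 by day in female knockouts. Epor, the receptor for the hormone erythropoietin, differed by 0.78, 1.99, 3.45 and 3.99. Without the female knockouts, r over the other 12 samples was 0.890 for Ermap, 0.881 for Trim10 and 0.463 for Gfi1b, the extremes being Ermap and Gfi1b. Plek, which encodes the platelet protein pleckstrin, differed less, by 0.40, 1.03, 1.04 and 1.14.

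Other genes of the red cell were grouped in lists that leave out the 7. In the list of 16 erythroid transcription factors and cofactors, 16 were higher in female knockouts on both late days and 9 at least 2-fold, with a median of 2.15 and no test. Of all genes tested, 46.9% were higher on both late female days and 1.67% at least 2-fold. These shares also stand beside the same counts of the lists below. At E12.5 and E13.5, 6 of the 16 rose and none fell, with a median of 0.48. The largest rises were those of Gfi1b, a zinc-finger repressor of the erythroid and megakaryocyte lines (1.45 ± 0.38, limma, adjusted p = 0.0321), and Nfe2, which binds the globin control region (1.29 ± 0.29, limma, adjusted p = 0.0199). Lyl1 rose by 1.25 and Tal1, a factor that blood formation needs, by 1.09. In male knockouts 2 of the 16 rose over the 4 days, Foxo3 by 0.53 and the heme-sensing repressor gene Bach1 by 0.48. On the late days Nfe2 rose by 0.99 and Bach1 by 0.62. The share that rose was 37.5% on the early female days, above the 17.3% of all genes. Over all male days and on the late male days it was 12.5% each, below the 21.7% and 18.7% of all genes.

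Among 17 genes of the red cell membrane and skeleton, 16 were higher in female knockouts on both late days and 12 at least 2-fold, with a median of 3.43 and no test. At the early days 7 rose and 1 fell. Kel, the Kell blood group protein, rose by 1.82 ± 0.33 (limma, adjusted p = 0.0114), Ermap by 1.72 and the urea transporter gene Slc14a1 by 1.70. Xk, whose product binds the Kell protein, fell by 1.38 ± 0.29 (limma, adjusted p = 0.0165). On the late male days 5 of the 17 rose and 1 fell. Cldn13, a claudin gene, rose by 2.01 ± 0.34 (limma, adjusted p = 0.00795) and Ermap by 1.63. Stom, Gypc and Cd59a, which are made in many cell types, rose by 0.70, 0.61 and 0.63. Rhd, which encodes the Rh protein that Rhag escorts, fell by 1.58 ± 0.33 (limma, adjusted p = 0.014) while Rhag rose. Over all male days the 3 genes that rose were Stom (0.65), Gypc (0.61) and Cd59a (0.59), and none fell. The share that rose was 41.2% on the early female days, against 17.3% of all genes, and 29.4% on the late male days, against 18.7%. Over all male days it was 17.6%, below the 21.7% of all genes. Shares above those of all genes were not limited to erythroid lists. Among macrophage markers 46.2% rose on the early female days and 53.8% on the late male days.

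Of 18 genes for heme synthesis and iron supply, 16 were higher in female knockouts on both late days and 5 at least 2-fold, with a median of 1.03 and no test. At the early days 2 rose, Tfr2, a transferrin receptor gene, by 1.74 ± 0.38 (limma, adjusted p = 0.0188) and Hmox1, which breaks heme down, by 0.56. In male knockouts Abcb6, a porphyrin transporter gene, fell by 1.07 over the 4 days, and it was the 1 gene of the list called there. At E14.5 and E15.5 in males Fech, which puts iron into heme, rose by 0.81, Slc25a38, a mitochondrial glycine carrier gene, by 0.59 and Fth1, a ferritin gene, by 0.39, while Abcb6 fell by 1.40 and Hmox1 by 0.47. The share of the list that rose was 11.1% on the early female days and 16.7% on the late male days, below the 17.3% and 18.7% of all genes. None of the 18 rose over all male days, where 21.7% of all genes did. On the late male days 11.1% of the list fell, against 14.6% of all genes. Among 11 other erythroid genes, 10 were higher in female knockouts on both late days and 6 at least 2-fold, with a median of 2.28. At the early days 6 of the 11 rose, among them Car2, the carbonic anhydrase gene (1.45), Epor (1.38), Trim10 (1.22) and Tspo2 (1.09). Over all male days Mgst3 rose by 0.57 and Prdx2 by 0.52, and Ube2o, a ubiquitin ligase gene of late red cells, fell by 0.70. At E14.5 and E15.5 Trim10 and Prdx2 each rose by 0.73, Mgst3 rose by 0.63 and Ube2o fell by 0.83. The share that rose was 54.5% on the early female days, against 17.3% of all genes, 18.2% over all male days, against 21.7%, and 27.3% on the late male days, against 18.7%.

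**Figure D4:**
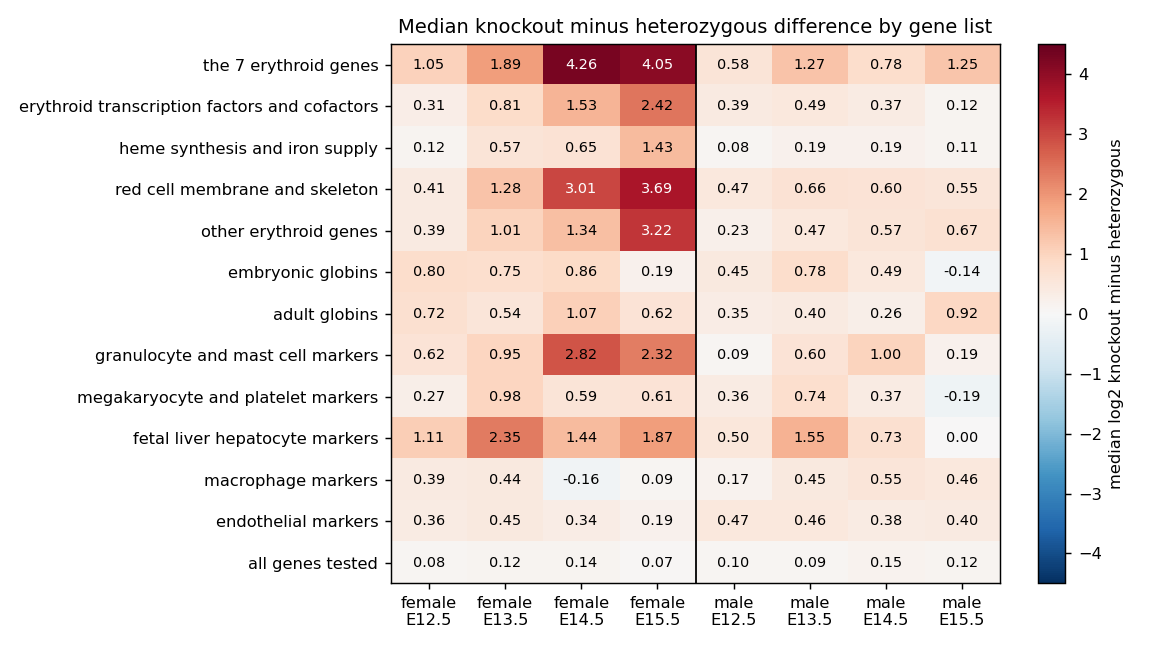
Median log2 knockout minus heterozygous difference of each gene list (rows) by sex and embryonic day (columns), with the value printed in each cell. On the late female days the membrane list reaches medians of 3.01 and 3.69, against 1.07 and 0.62 for adult globins and 0.14 and 0.07 for all genes tested. The 7 erythroid genes have medians of 4.26 and 4.05 there, and since the choice used these values nothing is read from their place above the other lists.

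Globin genes encode the protein chains of hemoglobin. The 3 embryonic ones differed by medians of 0.80, 0.75, 0.86 and 0.19 by day in female knockouts, and the 3 adult ones by 0.72, 0.54, 1.07 and 0.62. On the early days these medians lay below the 1.05 and 1.89 of the 7 genes. At E12.5 they lay above the 0.12 to 0.41 of the 4 other erythroid lists. The late female medians of the 7 genes, 4.26 and 4.05, come from values that the choice used, so the globin genes are not set against them. The embryonic globin genes parted on the late female days, with mean differences of 1.71 for Hbb-bh1, 0.45 for Hbb-y and 0.33 for Hba-x. At the early days 3 of 3 embryonic globin genes rose, Hba-x by 1.0, Hbb-y by 0.81 and Hbb-bh1 by 0.77. Of the adult ones 2 of 3 did, Hbb-bt by 0.87 and Hba-a2 by 0.60, where 17.3% of all genes rose. Over all male days 2 of 3 adult globin genes rose, Hbb-bt by 0.53 and Hba-a2 by 0.46, where 21.7% of all genes rose. None of the embryonic ones was called there, and no globin gene was called on the late male days. In males the embryonic globin genes fell with age in both groups, by 2.25 to 2.52 per day in knockouts and by 2.09 to 2.35 per day in heterozygotes. Among the adult ones Hbb-bt alone was called, rising by 0.61 per day in male knockouts and by 0.41 per day in male heterozygotes. Near-identical globin copies can share a probe, so single adult globin values are uncertain.

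Markers of other cells moved with the 7 genes in part. Of 14 granulocyte and mast cell markers, 11 were higher in female knockouts on both late days, with a median of 3.29, and their summed ratio was 20.4, 38.4, 154 and 113 in female knockouts by day, against 18.1, 22.5, 17.8 and 14.5 in female heterozygotes. Prg2, an eosinophil granule gene, differed by 8.43 at E14.5 and 1.98 at E15.5, and S100a8, a neutrophil gene, by 3.16 and 5.79. At the early days Cpa3 (2.68) and S100a8 (2.11) rose and Gata2 fell by 2.59. That is 14.3% higher and 7.14% lower, below the 17.3% and 11.1% of all genes. Of 12 fetal liver hepatocyte markers, 10 were higher on both late days with a median of 1.76, led by Alb (2.42) and Afp (2.37). At the early days, 10 of the 12 rose in female knockouts, which is 83.3%, where 17.3% of all genes rose. The hepatocyte markers had a median of 1.63 there, against 1.58 for the 7 erythroid genes. Their summed ratio was 12.4, 143, 13.2 and 25.6 in female knockouts by day, against 5.16, 25.9, 5.87 and 8.06 in female heterozygotes. It was highest at E13.5 in both female groups. In males it was 14.2 to 27.6 in knockouts, against 8.61 to 15.7 in heterozygotes. No hepatocyte, granulocyte or mast cell marker tested was at the limit in all 4 samples of either female group. The part of these cells in the erythroid differences was not tested.

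Megakaryocyte and platelet markers had a late female median of 0.62 over 12 genes, of which 8 were higher on both days, with Gp9 at 3.14 and Treml1 at 1.1. Macrophage markers had a median of -0.03 over 13 genes, with Lyz2 at 0.94 and C1qa at -0.26, and 1 of them was higher on both late days. Endothelial markers had a median of 0.25 over 14 genes, with Esam at -1.47 and Robo4 at 0.68. Gonad somatic markers had a median of 0.33 over 10 genes, with Sox9 at 0.83 and Dhh at 0.53, and of the 2 adrenocortical markers Mc2r differed by 0.46 and Cyp21a1 by 0.00. Germ cell markers had a median of -6.26 over 7 genes, with Mael at -9.22 and Sycp3 at -8.74. In male knockouts over the 4 days, medians were 0.56 for gonad somatic, 0.39 for endothelial, 0.39 for macrophage and 0.62 for hepatocyte markers, beside 1.04 for the 7 erythroid genes. Of these lists 5 of 10, 9 of 14, 5 of 13 and 4 of 12 genes rose in male knockouts and none fell, which is 50%, 64.3%, 38.5% and 33.3%, where 21.7% of all genes rose and 12.6% fell. On the early female days 7 of 14 endothelial, 6 of 13 macrophage and 3 of 10 gonad somatic markers rose. On the late male days 4 of 14, 7 of 13 and 5 of 10 of them did, and 1 macrophage marker fell. These shares lay above the 17.3% and 18.7% of all genes. Megakaryocyte and platelet markers lay below, with 2 of 12 and 1 of 12. So did hepatocyte markers on the late male days, with 1 of 12. The part of these lists in the erythroid differences was not tested.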

How the data were processed

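Gene expression was measured in 16 mouse embryonic gonad samples on 1-colour (Cy3) Agilent arrays. The deposited values are linear ratios, which the authors made after Agilent Feature Extraction 9.5, per the submitters' processing notes. How arrays were scaled, probes centred and replicates combined is not given in the sources used here. That the values are ratios to a typical level was read from them: 94.3% of probe medians lie between 0.9 and 1.1, and the lowest value is 0.01. Of 41267 probes, 93 control probes were left out. Of the rest 32664 had 1 gene symbol in the platform annotation, 45 had several and 8465 had none.

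Weak signals shared a limit within each sample, which was recovered (tolerance 0.0002 in log2). Limits differed by up to 1.08 between samples. Scaling set the 75th percentile of the 28373 probes never at the limit equal on every array and moved arrays by -0.26 to 0.33. Each probe was raised to its highest limit, and log2 was taken. For a gene with several probes, the one with fewest values at the limit was taken, and then the one with the highest mean. A gene was tested if at least 4 of 16 samples exceeded the limit.

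Models were fitted with limma 3.58.1 (lmFit, eBayes with trend) in R 4.3.3 on all 16 samples. Those for differences had a term for each sex and day, and those for slopes had 1 intercept and 1 slope per group. A gene was called where its p, adjusted over 16581 genes by Benjamini and Hochberg's method, was under 0.05. Residual degrees of freedom were 6 for effects over 4 days, 4 for effects on the early or late days and 8 for slopes. Days are the replicates, so a knockout minus heterozygous difference that really changes between days adds to the error of the difference tests. For slopes, real departures from a straight line do. Pairing knockout and heterozygous samples by day comes from the labels, and their deviations from group means correlated at 0.478 to 0.758 in 8 of 8 pairs. Arrays give no counts, so their number limits the precision. The scripts were tested on simulated data. The 7 genes, the gene lists and the tests were chosen with earlier results of these data known. Named in the text are all 7 genes, in each erythroid list the 4 called genes with the largest difference (the 2 largest where under 2 were called), the 15 genes most like the 7, and the 2 largest late female differences of each other marker list. Further genes were named after their values were seen where a list had few called. Alternatives covered scaling, limit, filter, probes, variance model, array weights, samples fitted, the day term and each day left out. Of the listed genes 15 had no probe with that symbol and 3 were below the filter.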

Additional observations from a re-analysis of the deposited data

Results flagged for a closer look

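In each of the 28 sets of 4 samples (7 genes in 4 groups), the gap of the highest or lowest sample to its neighbour was set against the range of the set. In 1 set a sample stood out: Epb42 in male heterozygotes, where the E12.5 sample at 0.49 lay far above the other days (-1.20, -1.35 and -1.34), with a gap of 0.914 of the range, above Dixon's 95% critical value. Chance picks out about 5% of such sets. The days are not replicates of 1 age, so a change with age would be picked out in the same way.

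Rhd and Slc14a1, from the red cell membrane list, were higher in female knockouts than in female heterozygotes on all 4 days and lower in male knockouts than in male heterozygotes on all 4. Rhd differed by 0.36, 1.91, 4.76 and 4.84 by day in females and by -0.69, -0.79, -1.73 and -1.44 in males, so its mean female difference exceeded its mean male difference by 4.13. For Slc14a1 the values were 0.89, 2.5, 4.13 and 4.1 in females and -0.03, -0.87, -0.23 and -0.47 in males, and the gap was 3.31. The difference between the sexes was not tested for either gene.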

How the results depend on the processing

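Of 476 alternative values for the 7 genes, 383 kept their direction and their side of the threshold, 71 lost a call, 19 gained one and 3 turned round. All 3 were the uncalled Hemgn slope in male heterozygotes, 0.08 per day as reported, which was -0.01 as the mean over probes, -0.08 without E13.5 and -0.44 without E15.5, and ranged from -0.44 to 0.92 over the days left out. The median female difference of the 7 genes, 2.89, stayed between 2.41 and 3.44 over all alternatives. With the values as deposited, 1934 genes were called over all male days in place of 5686 (16.6% of them higher in place of 63.3%), and 0 in place of 1 of the 7 (2 at an unadjusted p under 0.05 in limma). On the late male days 0 in place of 4 of the 7 were called (2 at an unadjusted p under 0.05), and 523 in place of 965 genes had a called slope in male knockouts. The share of rising genes among called slopes was 91.4% in male heterozygotes with the values as deposited and 51.6% after quantile normalization, in place of 64.7%, and 43.6% in place of 56.6% in male knockouts with the values as deposited. Quantile normalization left 3005 genes in place of 4709 called on the early female days, and 2 of the 7 on the late male days, as did scaling to the median and the lack of a filter. No called difference or slope of a listed gene turned round under the 3 other scalings, but calls were lost. With the values as deposited, 11 of 47 over all male days and 17 of 51 on the late male days held. On the early female days 66 of 73 held. Quantile normalization kept 30, 28 and 50 in these comparisons. Of the called slopes, 13 of 25 in male knockouts and 21 of 31 in male heterozygotes held with the values as deposited. Array weights called 2460 genes on the early female days, 5148 and 6515 slopes in male knockouts and male heterozygotes in place of 965 and 2736, and 1 and 6 of the 7. The male heterozygous slopes called among the 7 were 0 with no common limit or no filter, and 2 with the mean over probes. Fitted on 1 sex alone, 6 of the 7 were called over all male days and 2 on the late ones, and on the early female days 0 of the 7 (7 at an unadjusted p under 0.05) and 237 genes were.

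Without the day as a replicate block, 1037, 659 and 708 genes were called over all male days, on the late male days and on the early female days, and 0 of the 7 in each (0, 2 and 5 at an unadjusted p under 0.05 in limma). The share of higher calls was then 14.8%, 14.9% and 17.7%. Leaving out 1 day at a time gave 1568 to 5247 genes and 0 to 2 of the 7 over all male days, 0 to 4312 genes and 0 to 5 of the 7 on the late male days, and 553 to 2051 genes and 0 to 2 of the 7 on the early female days. For slopes it gave 0 to 1126 genes and 0 of the 7 in male knockouts, and 261 to 2821 genes and 0 to 1 of the 7 in male heterozygotes. The 0 genes of the late male days came without E15.5 (4413 at an unadjusted p under 0.05 in limma), as did the 0 slopes in male knockouts (1871 at an unadjusted p under 0.05). Without a day, fewer samples carry each test; beyond that the cause of these changes was not tested. A left-out day leaves the early or the late days with 1 pair, which is then assumed to vary like the others. Values at the weak-signal limit hold no order, which touches Ikzf1, Fga, Cd163, Elane, Mcpt4, Ngp and Cyp21a1 in the lists and none of the 7.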
